A study of Arabidopsis thaliana with 28 samples.

Results

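The plant photoreceptors are the receptors through which seedlings read the colour, amount and direction of light. This account describes the histone mark H3K9ac at the 10 Arabidopsis genes that encode the phytochromes PHYA (AT1G09570), PHYB (AT2G18790), PHYC (AT5G35840), PHYD (AT4G16250) and PHYE (AT4G18130), the cryptochromes CRY1 (AT4G08920) and CRY2 (AT1G04400), the phototropins PHOT1 (AT3G45780) and PHOT2 (AT5G58140) and the UV-B receptor UVR8 (AT5G63860). The genes were chosen by locus, as a family of known receptors, out of 27444 protein-coding genes on chromosomes 1 to 5, and every deposited H3K9ac domain that overlapped a gene's annotated span by at least 1 bp was assigned to it. This gave 311 of the 370373 domains in 28 libraries. In TAIR10 the spans are chr1:3095160-3100819 for PHYA, chr2:8139756-8144461 for PHYB, chr5:14007812-14011848 for PHYC, chr4:9195247-9199840 for PHYD, chr4:10042137-10046346 for PHYE, chr4:5723651-5727268 for CRY1, chr1:1185512-1188696 for CRY2, chr3:16816721-16824210 for PHOT1, chr5:23523825-23533111 for PHOT2 and chr5:25554416-25559499 for UVR8.

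Phytochromes sense red and far-red light through a bilin chromophore and move into the nucleus when activated, where they act on transcription. Cryptochromes and phototropins absorb blue light, the former steering growth and flowering and the latter, which are membrane-associated protein kinases, steering phototropism, chloroplast movement and stomatal opening, while UVR8 senses UV-B through its own tryptophan residues. Acetylation of the histone H3 tail at lysine K9 marks active genes and usually sits just downstream of the transcription start site.

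All libraries came from untreated Col-0 whole seedlings of Arabidopsis thaliana, 10 days old, grown with 16 h of light and 8 h of darkness, and all were made with the same anti-H3K9ac antibody. Each of the 14 groups held 2 libraries. PHILO, a multi-well low-input ChIP-seq protocol, was run at 5 sequencing depths (0.5M, 1M, 2M, 5M and 10M, named by their number of reads), with 10, 12 or 14 PCR cycles, from 1 mg of tissue, and from 500K, 100K or 20K nuclei. The other groups were eChIP, an enhanced ChIP protocol on seedling chromatin, and CUT&Tag, in which a tethered transposase cuts beside the antibody in nuclei. The study describes the depth and cycle samples as processed independently of each other, and the replicates of the method comparison and of the 1 mg input as biological. For the nuclei groups this is not given in the sources used here. The p-values and SEs below rest on these 2 libraries a group, with a spread estimated with the help of all regions tested. The SDs of enrichment below are taken over the depth and cycle libraries together and include differences between those groups.

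The libraries differed in depth, from 207252 to 7244177 ChIP reads in domains, and all lists shared 1 IgG control. Of 5 flower and seed genes taken as markers of tissue that seedlings lack, 4 had no domain in any library and CRA1 had one in 2 libraries, while the shoot markers RBCS1A, CAB2 and LHCA1 were marked in 25 to 28 libraries and the root markers SCR in 28, GL2 in 27 and PIN2 in 3. The material is whole seedling, in which fewer cells with the mark and less of the mark per cell cannot be told apart.

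Sequences at the members that the results below turn on are shown first, read from the RefSeq genome TAIR10.1 on the strand of the gene, 5′ to 3′. PHYB and PHYD are the only members whose window around the gene start, from 250 bases before it to 50 bases after it, held a G-box (CACGTG on both strands, in capitals), a motif found in 7.68% of 27443 such windows. In PHYB (chr2:8139506-8139755, plus strand, the 250 bases before the gene start) the motif began 146 and 111 bases before the start, and in PHYD (chr4:9199841-9199971, minus strand, the 131 bases between the gene and its upstream neighbour) 75 bases before it. PHYC (chr5:14007562-14007811, plus strand) is shown because its mean enrichment was the highest over the depth and cycle libraries and the lowest in CUT&Tag.
PHYB gene start: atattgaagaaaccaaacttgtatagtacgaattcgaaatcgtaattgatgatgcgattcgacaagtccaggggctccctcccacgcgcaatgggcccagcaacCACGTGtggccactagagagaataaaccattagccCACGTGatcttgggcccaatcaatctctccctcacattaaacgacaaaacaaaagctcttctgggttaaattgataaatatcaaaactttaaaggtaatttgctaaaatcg
PHYD gene start to neighbour: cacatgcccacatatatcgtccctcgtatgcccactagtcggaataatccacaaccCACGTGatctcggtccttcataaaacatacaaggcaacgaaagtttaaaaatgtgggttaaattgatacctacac
PHYC gene start: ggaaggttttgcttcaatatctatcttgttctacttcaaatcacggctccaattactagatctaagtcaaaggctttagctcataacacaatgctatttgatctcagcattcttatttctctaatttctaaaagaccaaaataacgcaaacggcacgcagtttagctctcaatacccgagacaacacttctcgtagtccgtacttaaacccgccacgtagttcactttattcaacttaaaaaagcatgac

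No member window held an I-box (GATAAG, 14.6% of windows, both strands) or an evening element (AAAATATCT, 2.82%), and TATAAA (52.1%, both strands) was present in PHYA, CRY1 and PHOT1. These letters are descriptions and not binding sites.

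For 3 members the mark began near the start of the coding sequence and well inside the transcript, so the first 60 coding bases are shown with the start codon in capitals for PHOT1 (chr3:16818557-16818616, plus strand), UVR8 (chr5:25558528-25558587, minus strand) and PHYE (chr4:10045889-10045948, minus strand). For PHOT1 the 250 bases before the inner transcript start are shown as well (chr3:16818097-16818346, plus strand), a stretch that is intron in the longer transcript and lies ahead of the first exon of the shorter one.
PHOT1 coding start: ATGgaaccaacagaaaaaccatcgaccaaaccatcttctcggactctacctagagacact
UVR8 coding start: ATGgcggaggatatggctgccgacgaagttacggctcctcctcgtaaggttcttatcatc
PHYE coding start: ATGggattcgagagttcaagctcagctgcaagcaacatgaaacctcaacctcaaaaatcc
PHOT1 inner start: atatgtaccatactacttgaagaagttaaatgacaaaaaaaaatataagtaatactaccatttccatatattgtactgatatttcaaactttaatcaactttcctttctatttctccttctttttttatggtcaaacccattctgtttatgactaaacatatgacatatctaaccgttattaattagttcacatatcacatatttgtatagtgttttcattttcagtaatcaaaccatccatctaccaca

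The photoreceptor genes were almost always marked. A domain was present in 275 of the 280 pairs of gene and library, and PHYC, PHYD, CRY1, PHOT1, PHOT2 and UVR8 had one in all 28 libraries. That is 6 of 10 members, where 26.9% of protein-coding genes were marked in every library. PHOT2 had a domain in its 5′ part in 26 of the 28 libraries, and in the 20K libraries its domains began only in the 3′ part. The members are long genes, from 3185 to 9287 bp against a median of 2078 bp for protein-coding genes. The part of gene length in this count was not tested.

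The 5 absences fell in 0.5M, 20K nuclei and CUT&Tag. PHYA had no domain in either 0.5M library, CRY2 none in 0.5M replicate 2, PHYB none in 20K nuclei replicate 1 and PHYE none in CUT&Tag replicate 1. In each of these groups the genome as a whole also lost marked genes: 31.2% of protein-coding genes had a domain in both 0.5M libraries against 8 of 10 members, 43.9% in both 20K libraries against 9 of 10, and 56.3% in both CUT&Tag libraries against 9 of 10. In the other 11 groups 10 of 10 members were marked in both libraries. The share of protein-coding genes so marked was 50.1% in 1M, 56.1% in 2M, 59.3% in 5M, 62.4% in 10M, 55.2%, 56.1% and 57.2% with 10, 12 and 14 cycles, 59% in eChIP, 59.6% in 1 mg, and 58.5% and 59.5% with 500K and 100K nuclei. PHYA in 20K nuclei replicate 1 kept only a domain at its 3′ end, which covered 241 bp of the gene. PHOT2 in both 20K libraries kept only domains that began in the 3′ part of the gene.

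**Figure D1:**
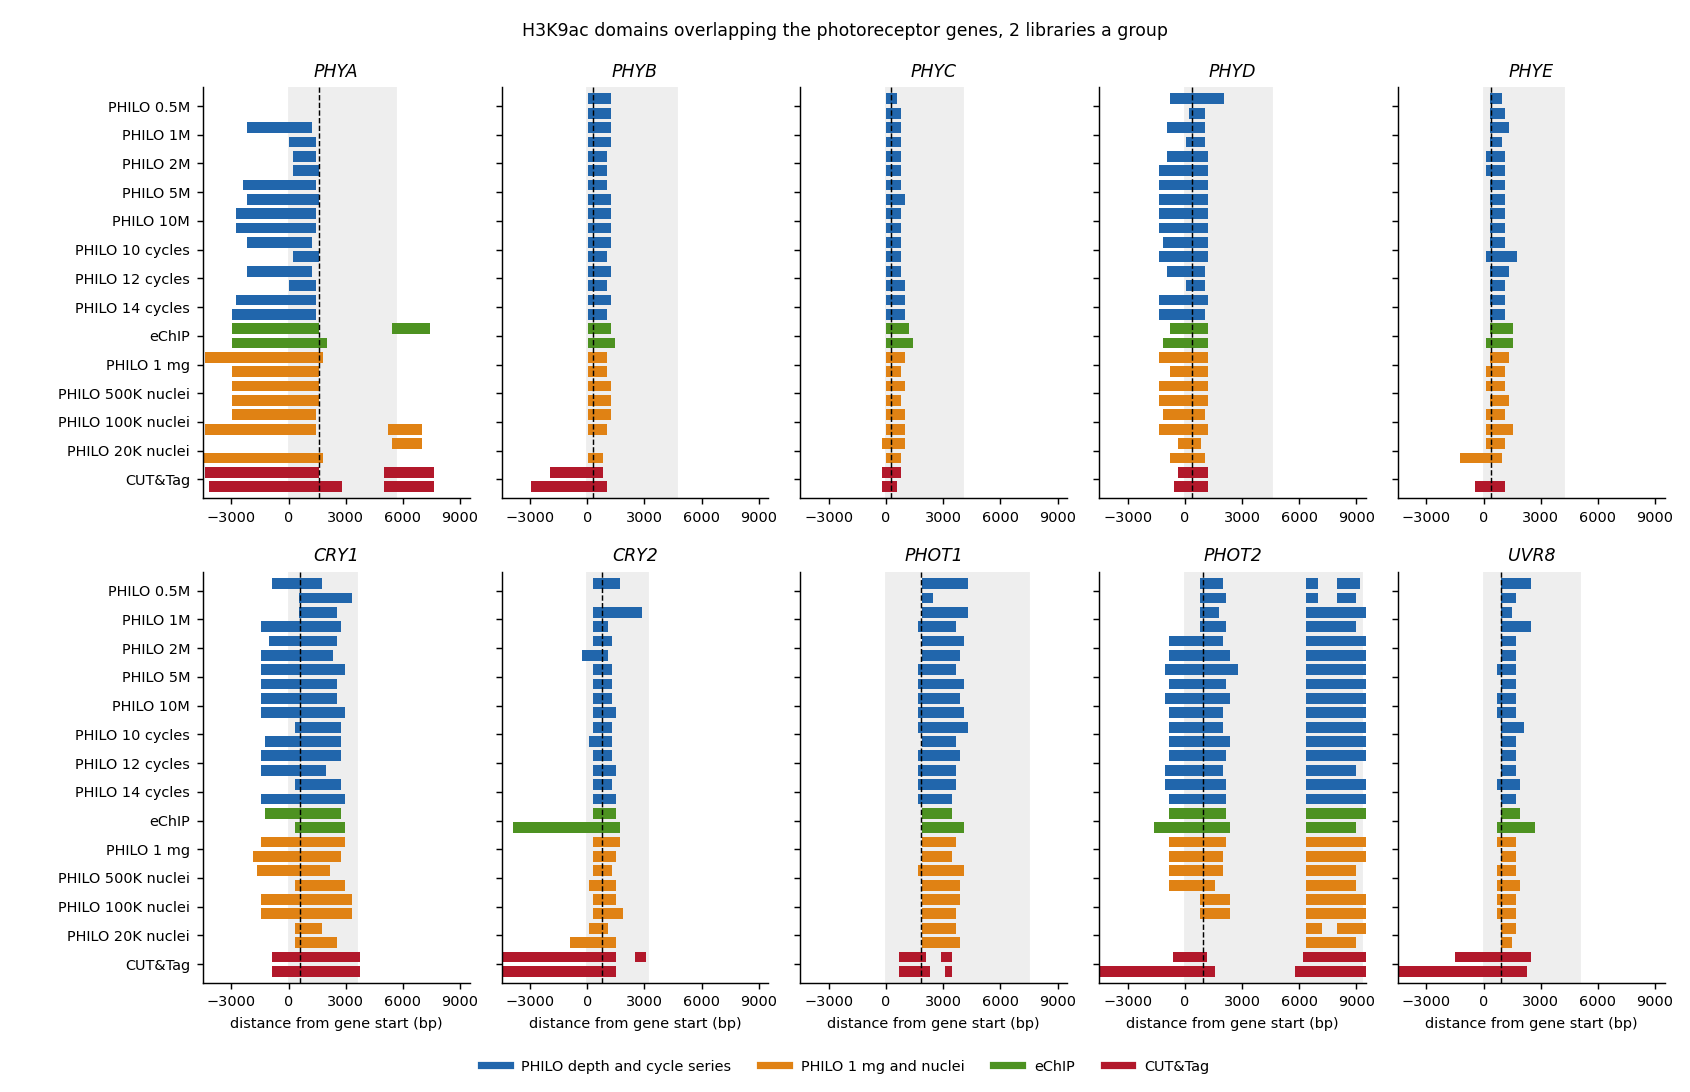
Position of every domain at the 10 photoreceptor genes, 1 row per library and 2 per group. The horizontal axis is the distance from the annotated gene start in bp, the grey band is the gene and the dashed line is the first coding base. PHOT1 domains began at 1680 or 1880 bp in the 26 ChIP libraries, while PHYC domains began at -11 or -211 bp in all 28.

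The place of the mark differed from gene to gene. Its first border took at most 4 values over the libraries at PHYB, PHYC, PHYE, PHOT1 and UVR8, and from 6 to 9 values at PHYA, PHYD, CRY1, CRY2 and PHOT2. Domain borders lie on a grid of 200 bp, so a border is known only to that step. PHYC and PHYB, a pair of red-light receptors of which PHYB is the main one in light-grown plants, carried the mark at the transcript start: the PHYC domain began 11 bp before the gene start in 25 of 28 libraries and the PHYB domain 45 bp after it in 25 of 27. Both domains ran over the first coding base, at 237 bp in PHYC and 323 bp in PHYB, in every library that had one. PHYE, a further light-stable phytochrome, was marked from 346 bp in 16 of 27 libraries, with its first coding base at 398 bp.

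UVR8 and PHOT1 carried the mark far inside the annotated gene, next to the start codon. The UVR8 domain began at 899 bp in 16 of 28 libraries and the first coding base lies at 912 bp. In PHOT1, the main phototropin for low blue light, the domain began at 1880 bp in 15 libraries, at 1680 bp in 11 and at 680 bp in the 2 CUT&Tag libraries, and in 0 of 28 did it cover the annotated gene start. The first coding base of PHOT1 is at 1836 bp, and the shorter of its 2 annotated transcripts starts at 1626 bp, and its first exon runs to 2536 bp, so all 26 ChIP domains began inside that exon. CRY2, which promotes flowering under long days, was marked from 296 bp in 19 of 27 libraries, upstream of its first coding base at 795 bp.

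At 4 members the domain usually ran out of the gene. PHYA domains covered the start in 20 of 25 libraries with a 5′ domain and most often began at -2981 bp, across the neighbour AT1G09575 that lies on the same strand from -2858 to -330 bp. PHYD domains covered the start in 25 of 28 and reached over AT4G16260, and PHOT2 domains in 20 of 26 and reached into ROS3, a gene on the opposite strand whose annotated 5′ end lies at -7 bp, head to head with PHOT2. For these 3 genes the reads of the domain cannot be divided between the member and its neighbour.

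CRY1, the main blue-light receptor of seedling growth, had no annotated neighbour within 3000 bp upstream, and yet its domain crossed the start in 20 of 28 libraries, in 12 of them from -1450 bp. The other 8 libraries began at 350 or 550 bp, and 7 of those 8 had no further domain within 3000 bp upstream, while 14 cycles replicate 1 had a separate one from -1450 to -651 bp. PHOT2 had a second domain near its 3′ end, from 6376 bp in the 10M libraries, over AT5G58150 on the opposite strand. Of the 28 libraries, 27 held at least 2 domains for this gene. In the 20K libraries every PHOT2 domain began in the 3′ part of the gene.

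Borders in CUT&Tag differed from those in 10M at several members. The PHYB domain began at -1955 and -2955 bp in the 2 libraries instead of 45 bp, the UVR8 domain at -1501 and -5301 bp instead of 699 bp in both 10M libraries, and the CRY2 domain at -5504 and -5704 bp instead of 296 bp. PHYD began at -360 and -560 bp against -1360 bp in both 10M libraries, and the only PHYE domain of CUT&Tag, in replicate 2, at -454 bp against 346 bp. CRY1 domains reached 3749 bp in the 2 CUT&Tag libraries and in no other library, and covered 100% of the gene there. PHOT1 was split in CUT&Tag, with a first domain from 680 to 2079 bp in replicate 1 and to 2279 bp in replicate 2. Covered length of the gene, the bases of its span under a domain, was higher in both CUT&Tag libraries than in both 10M libraries for 4 of 9 members, against 44.8% of protein-coding genes, and lower for 2 of 9, against 12.3%. CUT&Tag domains had a median width of 1600 and 2000 bp against 1000 bp in the 10M libraries.

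Enrichment over IgG, the ChIP to IgG ratio of a gene's domains after correction for library size, put the libraries on 1 scale. In the 16 libraries of the depth and cycle series PHYC was the highest member at 6.95 ± 1.12 (mean ± SD, n = 16), followed by PHOT1 at 6.49 ± 3.81, PHYE at 6.05 ± 1.38 and CRY1 at 5.45 ± 1.34. UVR8 stood at 4.81 ± 0.75, PHYA at 4.56 ± 0.50 (n = 14), CRY2 at 4.45 ± 0.81 (n = 15), PHOT2 at 4.26 ± 1.05, PHYB at 3.97 ± 0.55 and PHYD at 3.53 ± 1.26. No 2 neighbours in this order differed by more than their SDs. The values and percentiles of PHYA and PHYD are those of whole domains, which also lie over AT1G09575 and AT4G16260. In 10M these domains were on average 4200 bp wide with 1419 bp in PHYA and 2600 bp wide with 1240 bp in PHYD. The PHOT2 mean, like its percentiles below, includes its 3′ domain over AT5G58150. The 5′ domains of PHOT2 alone gave 4.53 ± 0.68, above CRY2. PHYA lacks both 0.5M libraries and CRY2 one of them, the group with the highest median over all marked genes (5.39 and 7.34), so their means are not taken over the same libraries as the others.

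In the depth and cycle libraries the median percentile among marked genes was 84.3 for PHYC and 15.9 for PHYD, the closest relative of PHYB, with the other members between. Ranked among the 17640 protein-coding genes with a domain in the 10M libraries, PHYC lay at percentile 92.4 and PHYE at 90.3, UVR8, PHOT1 and CRY2 between 67.7 and 71.6, CRY1 at 56.0, PHYA at 47.1, PHOT2 at 39.4, PHYB at 38.1 and PHYD at 16.8. The width of the PHOT1 mean came from 1 shallow library: 0.5M replicate 2 gave 20.6 from 28 ChIP reads and 40 IgG reads over 600 bp, where the other 15 libraries ranged up to 7.11.

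**Figure D2:**
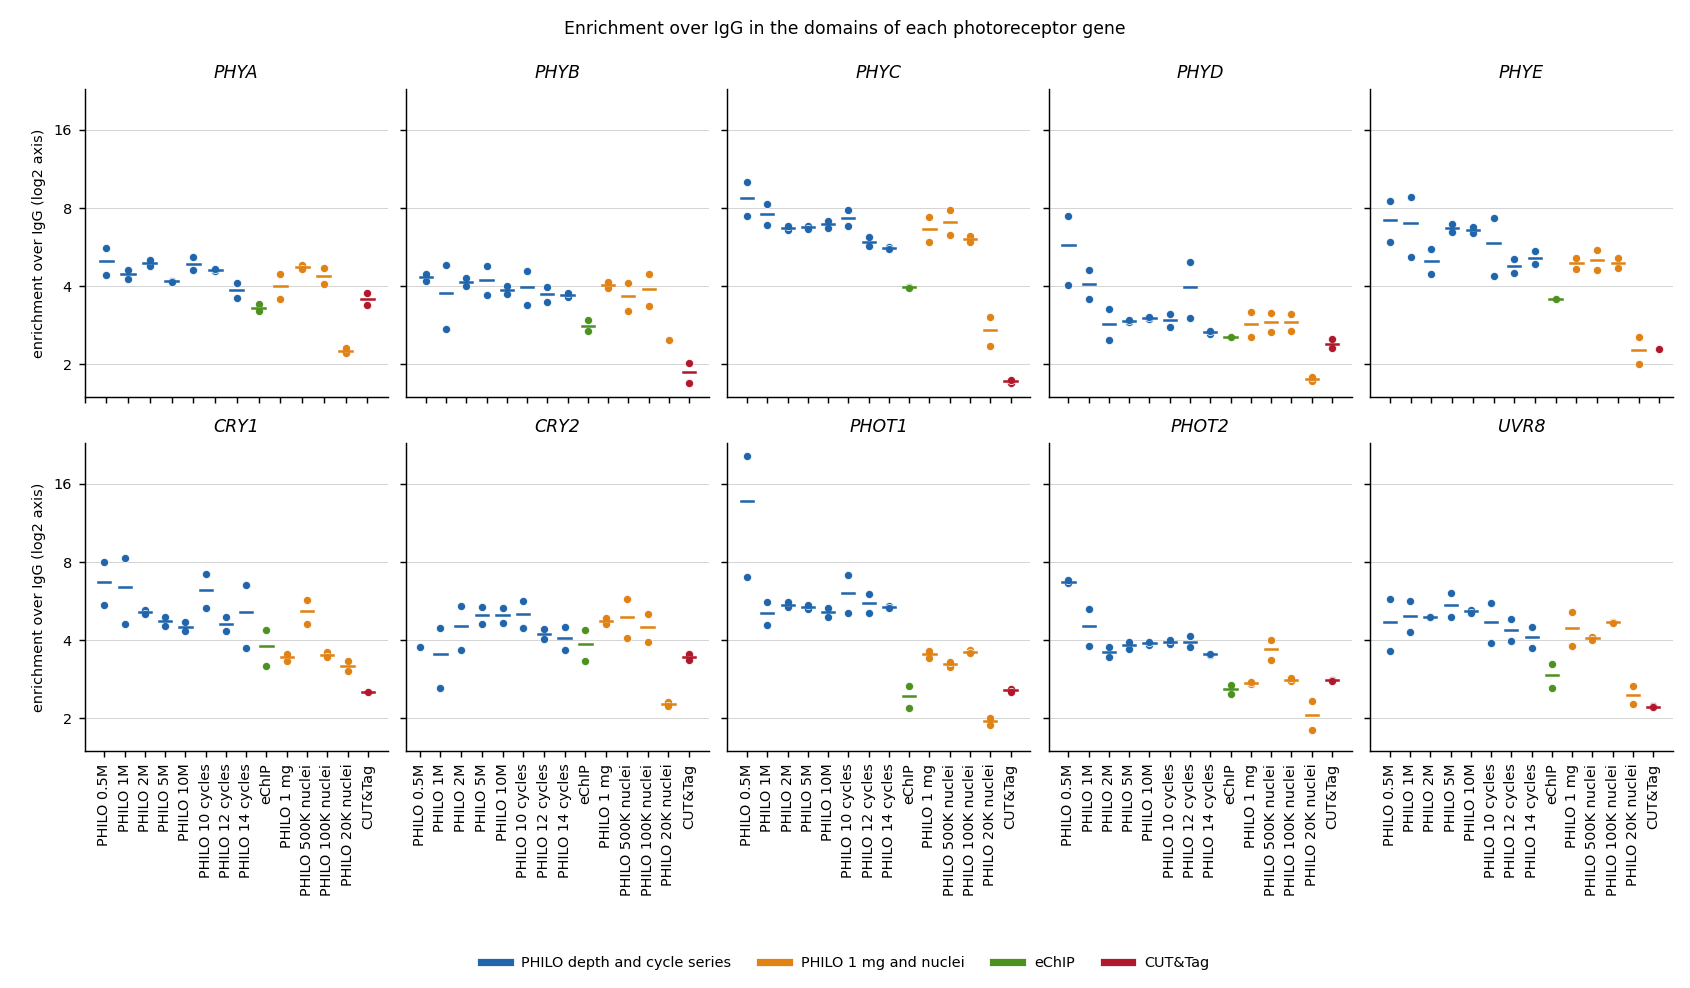
Enrichment over IgG (vertical axis, log2 scale) at each photoreceptor gene in the 14 groups. Points are libraries and short bars are the mean of 2 libraries. PHYC falls from 7.13 and 6.70 in 10M to 1.70 and 1.73 in CUT&Tag, and PHOT1 from 5.31 and 4.93 to 2.67 and 2.20 in eChIP.

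Fewer reads lay behind the members at low depth. In the 0.5M libraries PHYB rested on 18 and 14 ChIP reads and in the 10M libraries on 367 and 379, with enrichments of 4.19 and 4.47 against 4.00 and 3.72. Enrichment was higher in both 0.5M libraries than in both 10M libraries for 6 of 8 members marked in both groups, against 52% of 8559 genes, and lower for 0 of 8, against 4.26%, with a median log2 difference of 0.44 for the members and 0.38 for all genes. Between 1M and 10M, PHYA and PHYD were higher without overlap, 2 of 10 members against 44.8% of genes, and CRY2 lower, 1 of 10 against 4.61%. The covered length was lower at 0.5M for 1 of 8 members, PHOT2, against 39.5% of genes, and at 1M for PHYA, PHYD and PHOT2, 3 of 10 against 26.6%. It was higher for no member at either depth, against 2.83% and 2.08% of genes.

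Counts of ChIP reads were then compared over merged regions that held a domain in all 4 libraries, with edgeR's quasi-likelihood test and Benjamini-Hochberg adjustment over all regions. Of the 10 member regions tested between 0.5M and 10M, 1 passed an adjusted p of 0.05, against 3.07% of 6812 regions (lower, against 1.95%, and 0 higher, against 1.12%). It was the PHYA region, which held 319 and 326 CPM (ChIP counts scaled to the size of the library) at 10M and 179 and 244 at 0.5M, lower by 0.63 ± 0.17 on the log2 scale (SE, adjusted p = 0.0485). At 0.5M its domains lay only over AT1G09575, from -2181 to -382 bp and to -982 bp, so the counts there come from domains outside the receptor gene. The call was lost without 10M replicate 1 (adjusted p = 0.26), without 10M replicate 2 (0.288) and without 0.5M replicate 1 (0.321).

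No member region passed the edgeR test between 1M and 10M (0 of 11, background 0.662%), between 14 and 10 PCR cycles (0 of 11, background 0.008%), between 100K and 500K nuclei (0 of 12, background 0%) or between 20K and 500K nuclei (0 of 10, background 0.0537%). At an unadjusted p under 0.05 the counts were 2 of 11, 1 of 11, 0 of 12 and 2 of 10. Over all regions they were 1448 of 11326, 638 of 12497, 672 of 12925 and 1083 of 9303. DESeq2 called 0 member regions in each, against 4, 0, 2 and 23 of all regions. The lowest of these unadjusted p-values in the edgeR fits was 0.0206, for PHYE between 14 and 10 cycles, where the CPM were 53.2 and 63.5 against 74.6 and 77.5. Their groups did not overlap, and the difference of -0.38 ± 0.15 did not pass adjustment (adjusted p = 0.965).

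Enrichment was lower in both 14-cycle libraries than in both 10-cycle libraries for PHYA, PHYC, PHYD and PHOT2, 4 of 10 members against 42.5% of genes, and higher for 0 of 10, against 3.92%. The covered length was higher with 14 cycles for PHYA and PHYC, 2 of 10 against 7.95%, and lower for 0, against 6.51%. With 20K nuclei enrichment was lower than with 500K for 9 of 9 members, against 95.2% of genes (0 higher, against 0.168%), with a median log2 difference of -0.84 for the members and -0.92 for all genes. PHYC, for example, gave 2.35 and 3.06 with 20K nuclei and 6.30 and 7.85 with 500K. At PHOT2 the 20K values came only from domains that began in the 3′ part of the gene, while the 500K values included its 5′ domain. At PHYA the value of 20K replicate 1 came from a domain at the 3′ end alone, against 5′ domains with 500K. Between 100K and 500K nuclei 3 of 10 members were lower without overlap, against 28.7% of genes, and 2 of 10 were higher, against 7.64%, these being PHOT1 and UVR8. The covered length was lower with 20K nuclei for PHYD, PHOT2 and UVR8, 3 of 9 against 17.3% of genes, and higher for 0, against 7.47%. With 100K nuclei it was higher for CRY1, 1 of 10 against 12.3%, and lower for 0, against 2.27%.

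Of the members, PHOT1 and CRY1 were called in all 3 comparisons of 1 mg, eChIP and CUT&Tag with 10M, and of this pair only PHOT1 kept its direction under every alternative run. Its region held 143 and 143 CPM in the 10M libraries and 82.9 and 66.8 CPM in the 1 mg libraries. Both 1 mg libraries were lower than both 10M libraries, and the difference was -0.93 ± 0.09 on the log2 scale (SE, edgeR adjusted p = 1.02e-04). In eChIP the same region held 64.0 and 65.7 CPM against 145 and 145, a difference of -1.16 ± 0.08 (edgeR adjusted p = 2.75e-04), and in CUT&Tag 87.1 and 75.2 against 149 and 149, a difference of -0.89 ± 0.11 (edgeR adjusted p = 0.00301). The 3 comparisons share the 10M libraries and so are not independent of each other.

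PHOT1 kept its call in eChIP and in CUT&Tag under all 11 alternatives to the fit, where the difference ranged from -1.17 to -0.79 and from -1.04 to -0.69. In the 1 mg comparison it remained lower in 11 of 11 but passed in 8. With the covered length as an offset the difference was -0.50 (adjusted p = 0.0833), with the IgG count as an offset -0.43 (0.12) and with limma on log2 enrichment -0.54 (0.0834). The PHOT1 domains covered 1800 and 1600 bp in the 1 mg libraries and 2200 and 2400 bp in the 10M libraries.

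The rank of PHOT1 among marked genes differed in its median between sets of libraries, with ranges that overlapped. It lay at percentiles 41.8 to 98.2 (median 70.9) in the 16 depth and cycle libraries and at 12.3 to 48.5 (median 29.3) in the 10 libraries from eChIP, 1 mg and nuclei, with 43.7 and 57.9 in CUT&Tag. The 500K nuclei libraries, with 22.3 and 22.1, were lower than any depth or cycle library. Values of the shoot markers in the same comparisons were mixed: RBCS1A, CAB2 and LHCA1 were lower in 1 mg than in 10M (3 of 3, with -0.70, -3.31 and -0.35), of 2 tested in eChIP RBCS1A was lower (-1.99) and LHCA1 did not pass (0.21), and in CUT&Tag RBCS1A and CAB2 were lower (-0.74 and -0.84) and LHCA1 higher (0.76). Of the root markers, GL2 and SCR did not pass in 1 mg (-0.24 and -0.28) or eChIP (-0.38 and -0.39), and in CUT&Tag SCR was higher (0.77) and GL2 did not pass (-0.36). PIN2, without a domain in all 4 libraries, was not tested. The part of tissue composition in the PHOT1 result was not tested.

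**Figure D3:**
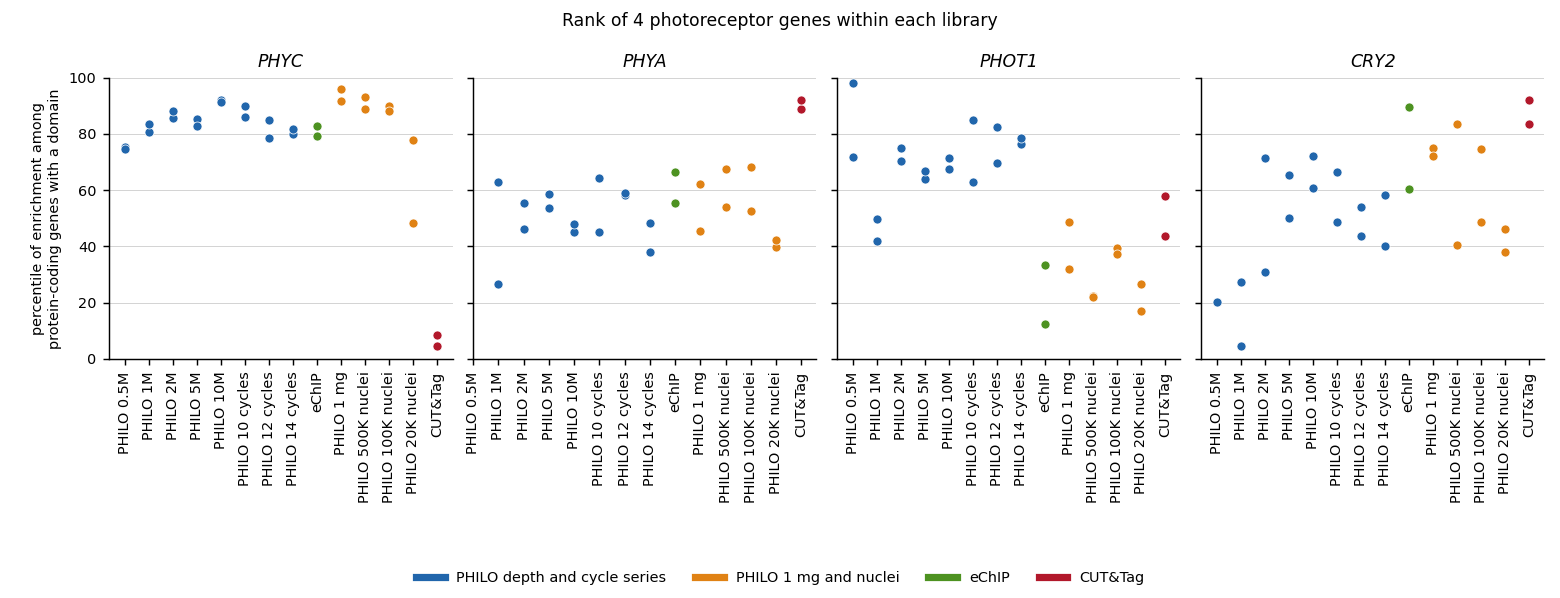
Percentile of the enrichment of PHYC, PHYA, PHOT1 and CRY2 among protein-coding genes with a domain in the same library (vertical axis, 0 to 100), by group. Each point is a library. PHOT1 lies at 62.8 or above in every depth and cycle library other than the 1M pair and at 48.5 or below in eChIP, 1 mg and nuclei, and PHYC drops to 4.54 and 8.39 in CUT&Tag.

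Of the other member regions, 5 more passed between 1 mg and 10M, which makes 6 of 11 against 27.5% of 13224 regions (5 lower, against 16.3%, and 1 higher, against 11.2%). The 5′ region of PHOT2, the phototropin of strong blue light, held 89.2 and 81.5 CPM against 152 and 139 and was lower by 0.77 ± 0.08 (edgeR adjusted p = 1.17e-04). Like PHOT1 it passed without any 1 library and failed with the covered length offset (-0.68, adjusted p = 0.0512), the IgG offset (-0.67, 0.063) and limma (-0.78, 0.0542). This region extends over ROS3. On the enrichment scale PHYE, CRY1, PHOT1 and PHOT2 were lower in both 1 mg libraries than in both 10M libraries, 4 of 10 members against 47.4% of genes, and 0 were higher, against 8.48%. The covered length was lower for PHYB and PHOT1, 2 of 10 against 7.46%, and higher for PHYA and PHYE, 2 of 10 against 11.9%.

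Smaller differences in 1 mg were -0.19 for CRY1, -0.19 for the PHOT2 3′ region, -0.27 for UVR8 and 0.21 for PHYA, all with an edgeR adjusted p between 0.00742 and 0.0456. The PHYA call was lost without 10M replicate 1 (adjusted p = 0.0666), and the UVR8 call without any of the 4 libraries in turn (0.0582 to 0.201). CRY1 was lost without 10M replicate 1 (0.0801), 10M replicate 2 (0.177) or 1 mg replicate 1 (0.0994), and the PHOT2 3′ region without 10M replicate 1 (0.107), 10M replicate 2 (0.198) or 1 mg replicate 2 (0.0831). The PHYA direction turned to -0.03 with the covered length offset and to -0.08 with limma.

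In eChIP 3 of 12 member regions passed, all lower, against 27.7% of 12655 regions called in either direction and 16% called lower (11.7% higher). Beside PHOT1 these were PHOT2, with 96.4 and 115 CPM against 154 and 141 (-0.48 ± 0.10, edgeR adjusted p = 0.0131), and CRY1, with 181 and 150 against 211 and 218 (-0.37 ± 0.09, edgeR adjusted p = 0.0232). Without 10M replicate 1 the adjusted p of PHOT2 was 0.107 and that of CRY1 0.0958, and without 10M replicate 2 that of CRY1 was 0.141. CRY1 turned to 0.01 with the covered length offset and 0.02 with the IgG offset. On the enrichment scale 9 of 10 members were lower in both eChIP libraries than in both 10M libraries, against 86.7% of genes, and 0 were higher, against 1.3%, with a median log2 difference of -0.52 for the members and -0.50 for all genes. CRY1 was the exception, with 3.17 and 4.40 against 4.70 and 4.34. The covered length was higher in eChIP for PHYA, PHYC and PHYE, 3 of 10 against 29.9%, and lower for 0, against 4.86%.

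**Figure D4:**
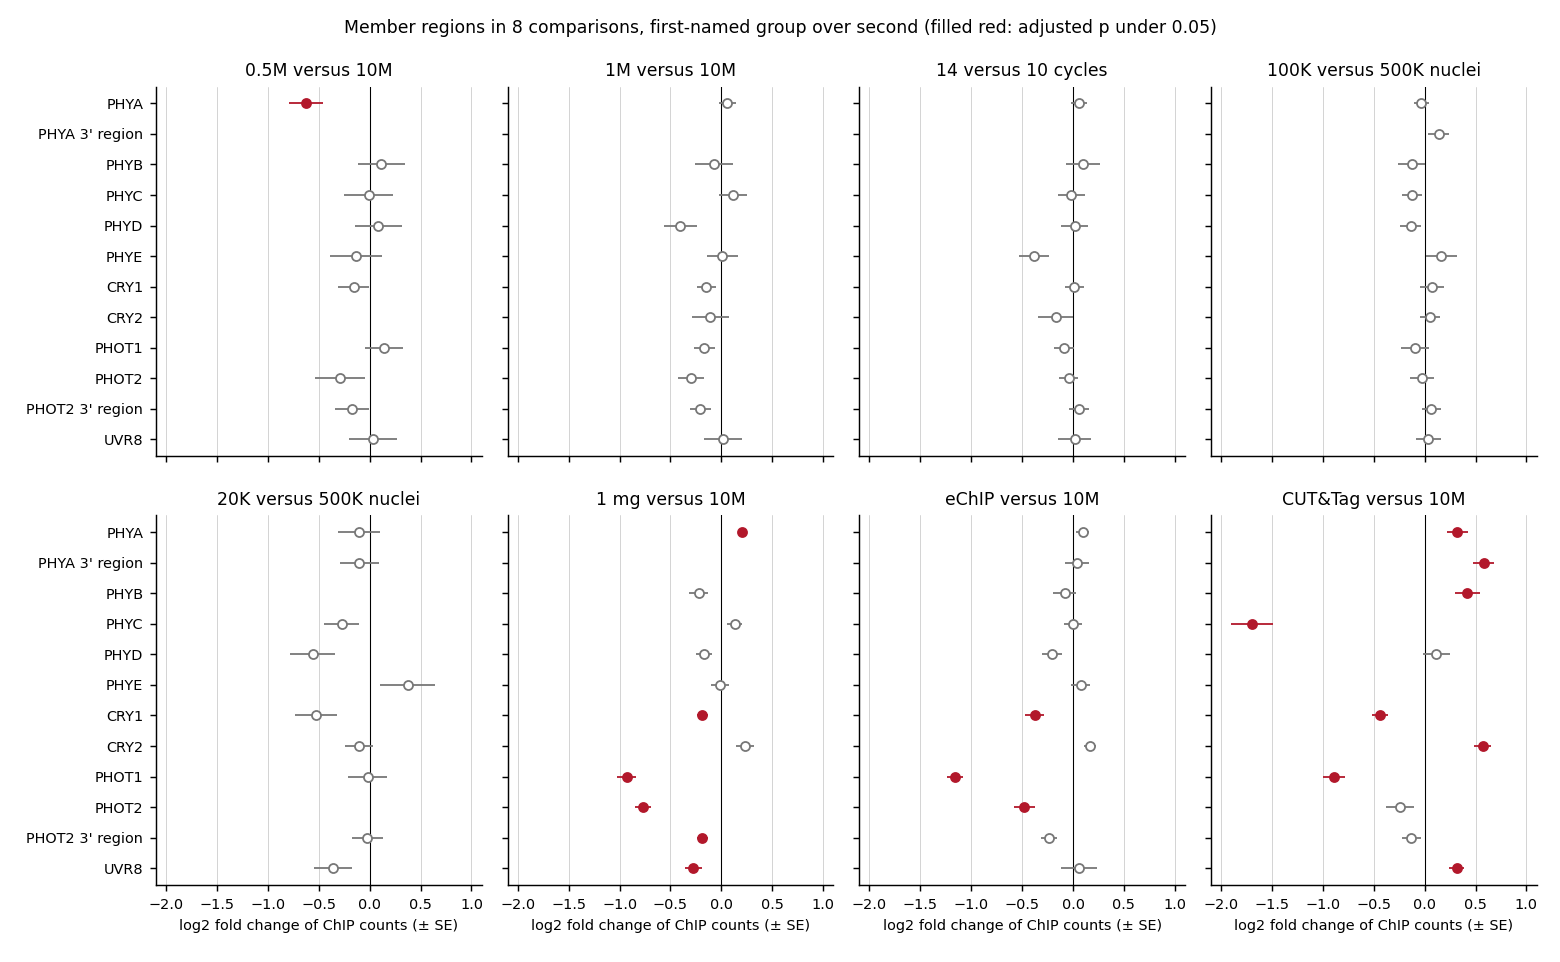
Log2 fold change of ChIP counts over each member region in the 8 comparisons, with the first-named group over the second and bars of ± 1 SE. Filled red points have an edgeR adjusted p under 0.05. PHOT1 is at -0.93, -1.16 and -0.89 in 1 mg, eChIP and CUT&Tag, and PHYC at -1.70 in CUT&Tag.

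The order of the phytochrome genes was different in CUT&Tag. The PHYC region held 29.8 and 20.1 CPM in CUT&Tag and 79.3 and 76.7 CPM in 10M, so both libraries were lower, by 1.70 ± 0.21 on the log2 scale (SE, edgeR adjusted p = 0.00296). The call held in 12 of 12 alternatives, with differences from -2.01 to -1.39. Its enrichment of 1.70 and 1.73 placed PHYC at percentiles 4.54 and 8.39 of marked genes, where the depth and cycle libraries gave 74.5 to 92.0. PHYC was thus the highest member on average in those ChIP libraries and the lowest or next to lowest in CUT&Tag, with PHYB at 2.02 and 1.70.

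PHYA and CRY2 stood higher in the CUT&Tag ranking. The ranked value is that of whole domains, which in CUT&Tag reached over AT1G09575 at PHYA and over c-NAD-MDH1 and AT1G04420 at CRY2. The domain nearest the start was on average 6500 bp wide at PHYA and 7100 bp at CRY2, against 4200 and 1100 bp in 10M. The part of the neighbours in these ranks was not tested. PHYA, the phytochrome that accumulates in darkness and detects far-red light, lay at percentiles 88.8 and 92.2 in CUT&Tag against 26.5 to 64.3 in the depth and cycle libraries, and CRY2 at 83.5 and 92.0 against 4.52 to 72.2. In absolute enrichment both were nevertheless lower than in 10M, PHYA with 3.77 and 3.38 against 4.20 and 4.16 and CRY2 with 3.53 and 3.37 against 5.34 and 4.65. Enrichment fell without overlap for 9 of 9 members marked in all 4 libraries, against 85.5% of genes (0 higher, against 3.13%), with a median log2 difference of -0.84 for the members and -0.75 for all genes.

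By counts, 8 of 11 member regions passed between CUT&Tag and 10M, against 47.5% of 8228 regions. PHYC, PHOT1 and CRY1 were lower (3 of 11, against 22.1%) and the PHYA 5′ region, the PHYA 3′ region, PHYB, CRY2 and UVR8 were higher (5 of 11, against 25.4%). PHYA thus entered with both of its regions. The 3′ region lies at the end of the gene and reaches into GLP5, on the opposite strand from 5865 to 7175 bp. In 10M its counts come from domains outside PHYA. CRY1 held 170 and 156 CPM against 216 and 224 (-0.44 ± 0.08, edgeR adjusted p = 0.00841), a call lost without 10M replicate 1 (0.061) or 10M replicate 2 (0.0902). For CRY2 the values were 360 and 311 CPM against 223 and 226 (0.57 ± 0.09, edgeR adjusted p = 0.00529), over 7000 and 7200 bp of domain in CUT&Tag and 4000 bp in both 10M libraries.

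The higher counts went with longer domains. With the covered length as an offset the difference of CRY2 turned to -0.25, of PHYB from 0.42 to -0.66, of UVR8 from 0.32 to -0.53, of the PHYA 5′ region from 0.32 to -0.09 and of the PHYA 3′ region from 0.58 to -0.80. Leaving out 10M replicate 1 or 10M replicate 2 ended the calls of PHYB (adjusted p = 0.366 and 0.265), UVR8 (0.156 and 0.201), the PHYA 5′ region (0.182 and 0.13) and the PHYA 3′ region (0.0606 and 0.114). The CUT&Tag regions reach into neighbours. These are PP7 in the case of UVR8, AT2G18780 in that of PHYB, c-NAD-MDH1 in that of CRY2 and GLP5 in that of the PHYA 3′ region. The part of the neighbours in the counts was not tested.

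A fixed list of 19 other genes of light perception and early signalling gave the setting. Of these, 18 were marked in both 10M libraries and 9 in all 28, the exception in 10M being FKF1, a blue-light F-box protein of the flowering clock pathway, which had a domain in 10 of 28 libraries. Tested with whole genes as features, 5 of 17 were lower in 1 mg than in 10M and none was higher, against 6.63% of genes lower. They were CRY3 (-1.03), CIB1, a partner of CRY2 (-0.76), BIC1 and BIC2, inhibitors of cryptochromes (-0.90 and -1.35), and RUP2, a repressor of UVR8 (-0.95). In eChIP 5 of 16 were lower, against 6.36%, these being BIC1 (-0.97), BIC2 (-1.58), RUP2 (-1.29), NPH3, which relays phototropin signals (-1.37), and HY2, which makes the phytochrome chromophore (-0.55).

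In CUT&Tag 3 of 15 were higher, against 23.8% of genes, and 3 lower, against 20.8%. SPA1, a repressor of light signalling (2.34), FHY1, which carries PHYA into the nucleus (1.09), and LKP2 (0.50) were higher, and HY2 (-0.82), BIC2 (-1.04) and RUP2 (-1.24) lower. These are counts of whole domains, with no correction for their length. Mean enrichment over IgG of the 3 higher genes was lower in CUT&Tag than in 10M. It was 2.39 against 2.97 for SPA1, 2.14 against 3.85 for FHY1 and 1.82 against 7.72 for LKP2. In 1M 1 of 16 passed, RPT2, a phototropin partner (-1.74, edgeR adjusted p = 0.0286), against 0.924% of genes lower. No gene of the list passed between 0.5M and 10M (10 tested), 14 and 10 cycles (17), 100K and 500K nuclei (17) or 20K and 500K nuclei (13). In these, 2, 1, 0 and 0 had an unadjusted p under 0.05, against 1500 of 8559, 547 of 14969, 640 of 15838 and 1078 of 11933 genes. Among the members themselves this gene-level fit called PHOT1 and PHOT2 lower in 1 mg (-0.94 and -0.43), 2 of 10 against 6.63% of genes. In eChIP it called PHOT1 lower (-1.18), 1 of 10 against 6.36%. In these 2 comparisons 0 members were higher, against 5.14% and 5.49%. In CUT&Tag it called PHYC, PHYD, CRY1 and PHOT1 lower (-2.16, -1.23, -0.93 and -1.37), 4 of 9 against 20.8%. CRY2 was higher there (1.78), 1 of 9 against 23.8%. For PHYD this differs from the merged region, which also spans AT4G16260 and NRPB9B and gave 0.11 ± 0.13 (edgeR adjusted p = 0.516). For CRY2 the merged region gave 0.57 ± 0.09, and mean enrichment was lower in CUT&Tag (3.45) than in 10M (4.99). The CRY2 domain nearest the start was on average 7100 bp wide in CUT&Tag and 1100 bp in 10M.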

How the data were processed

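The files were 28 lists of H3K9ac domains. The authors aligned reads to TAIR10 with Bowtie2 and called domains per library with epic2 against IgG (the labels also list SICER 0.0.52 and deepTools 3.5.2), and deposited the ChIP and IgG count, score, FDR (an adjusted p-value) and log2 fold change of each domain. Background reads outside domains were not used here, so counts exist only where a domain was called, and low values are missing rather than low. Groups came from the sample titles. The members and lists were chosen with earlier results of these data known. All 10 members, the genes of the light list that passed a test or lacked a domain in a 10M library and, for each member marked in all 28 libraries, the gene with the highest correlation were named by rule.

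Enrichment was the summed ChIP over IgG count, scaled by the library ratio recovered from the deposited log2 fold changes. A percentile is the rank of that value among protein-coding genes with a domain in the library. Overlapping or adjoining domains were merged, and regions with a domain in all 4 libraries were tested with edgeR 4.0.16 (TMM, quasi-likelihood, Benjamini-Hochberg, threshold 0.05) in R 4.3.3. Alternatives were total count scaling, DESeq2 1.42.0, offsets for covered length or IgG count, at least 10 counts, at least 80% covered, limma 3.58.1, a replicate block, leaving out each library and genes as features. On simulated counts the fit recovered 65.5% (0.5M versus 10M, 6812 regions) to 99% (CUT&Tag versus 10M, 8228 regions) of 200 changed regions, with 3 to 15 false calls. The changed regions were doubled or halved, and the same dispersion (spread) was set for every comparison. In the data it ran from 0.00081 (0.5M versus 10M) to 0.020 (20K versus 500K nuclei), so the recovery is not the power of these data. PCR reads are not independent molecules. Annotation and sequence came from RefSeq TAIR10.1, and 0 stretches of 50 bases inside the members recurred elsewhere.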

Additional observations from a re-analysis of the deposited data

How the results depend on the processing

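The count of members marked in every library fell from 6 to 3 when only domains with a log2 fold change of at least 1 were kept and to 2 at an FDR of at most 1e-10. The share of 26.9% of all genes belongs to the unfiltered lists. It is not given here at the stricter thresholds, so the fall of the members cannot be set against that of all genes. The 1 member region called between 0.5M and 10M became 0 under total count scaling, both offsets, 80% coverage, limma and genes as features, and 0 to 1 without each library, where PHOT2 passed without 0.5M replicate 1 (-1.25). Between 20K and 500K nuclei the 0 called became 10 of 10 under limma on log2 enrichment, which keeps the genome-wide fall, and 0 to 1 without each library, PHYE without 20K nuclei replicate 1 (0.71) and PHYD without replicate 2 (-0.86). No member region remained there at 80% coverage. Over all regions limma called 8417 of 9303 between 20K and 500K nuclei. For 1 mg the 6 called became 3 with DESeq2, 0 with either offset or limma, 2 with genes as features and 2 (without 10M replicate 1) to 5 (without 1 mg replicate 2, where CRY2 passed with 0.31). For eChIP the 3 became 1 of 3 at 80% coverage, 7 under limma, 1 with genes as features, and 1 (without 10M replicate 1) to 6 (without eChIP replicate 1, where CRY2, the PHOT2 3′ region and UVR8 passed) on leaving out a library, with PHYD passing without eChIP replicate 2 (-0.32). For CUT&Tag the 8 became 5 under total count scaling, 1 of 1 at 80% coverage, 5 with genes as features and 3 (without either 10M library) to 10 (without CUT&Tag replicate 2, where both PHOT2 regions passed with -0.49 and -0.25). Leaving out a library leaves a lone sample in its group, assumed to vary like the others.

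Differences of called regions changed sign under the covered length offset, the IgG offset and limma for PHYA in 0.5M (0.89, 0.78 and 0.83) and in CUT&Tag for the PHYA 3′ region (-0.80, -0.80 and -1.01), PHYB (-0.66, -0.75 and -0.96), CRY2 (-0.25, -0.24 and -0.46) and UVR8 (-0.53, -0.58 and -0.80). PHYA changed sign under the length offset and limma in 1 mg (-0.031 and -0.076) and in CUT&Tag (-0.092 and -0.21), and CRY1 in eChIP under the length and IgG offsets (0.0096 and 0.020). Of the 3906 regions called in CUT&Tag, 53.5% were higher, against 36.5% of 4136 under total count scaling. Over all regions the calls ranged over the alternatives from 0 to 391 (0.5M), 0 to 180 (1M), 0 to 57 (14 cycles), 0 to 117 (100K), 0 to 8417 (20K), 18 to 3737 (1 mg), 1395 to 8107 (eChIP) and 187 to 6565 (CUT&Tag). The cause was not tested.

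Same-numbered replicates shared only a number: their deviations correlated between -0.046 and 0.13 over the 8 comparisons. With a replicate block the member regions called were 1 (0.5M), 0 (1M, 14 cycles, 100K and 20K), 5 (1 mg), 3 (eChIP) and 7 (CUT&Tag), and all regions called were 249, 180, 29, 2, 82, 3737, 3325 and 3580 in the order of the comparisons.

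With 2 libraries a group, counts only inside called domains and 14 to 28 ChIP reads at some members in 0.5M, differences there were not detectable unless large.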

Other observations

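For each member marked in all 28 libraries, the protein-coding gene with the most similar course of log2 enrichment, after subtraction of the library median, was looked up among 7385 to 7389 genes. The Pearson correlations are descriptions over 28 libraries that share an IgG control, a depth and a protocol within groups. PHOT1 was most like AT3G52710 (r = 0.87) and PHYC most like AT3G57120 (r = 0.93). PHYD was most like AT4G17085 (0.81), PHOT2 most like RBP47A, an RNA-binding protein (0.80), UVR8 most like AT1G70180 (0.70) and CRY1 most like MMZ2 (0.63). Genes under the same domains as the member were left out.

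RUP2 had the highest median enrichment of the light list in the 16 depth and cycle libraries (10.5), at percentiles 95.1 to 99.6 of marked genes and an enrichment of 8.34 to 16.8.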
